A study of Mus musculus with 8 samples.

Results

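The genes described here encode corepressors through which BCL6 acts, and class II histone deacetylases (HDACs): Ncor1, Bcor, Bcorl1, Hdac3, Hdac4, Hdac5, Hdac7, Mta3 and Ctbp1. They were chosen by symbol, as probe sets that the platform annotation ties to exactly 1 of these symbols, with the highest mean over all arrays deciding where a gene had several. Of the 9 genes listed, 8 were found among 19937 genes with a single symbol. Ncor1 had no such probe set and was not analysed here. The cells were FoxP3+ regulatory T cells (Tregs), CD4 T cells that restrain immune responses, sorted from Bcl6-/- mice (KO) and from wild-type mice (WT), stimulated with antibodies to CD3 and CD28 for 16 h. Labelled DNA made from 100 ng of total RNA was hybridised to 8 Affymetrix arrays: 4 KO arrays, from preparations 1 and 2 with arrays A and B each, and 4 WT arrays numbered in the same way. The design text counts 2 KO and 2 WT, but nothing ties a preparation or a letter to its own mouse, culture or RNA extract. The p-values below therefore reflect the spread among these 8 samples alone, and that spread may be technical. The labels give no age, strain background or sorting method. The Bcl6 probe set read 9.005 and 8.82 in KO 1 and 8.54 and 8.51 in KO 2, against 7.97, 8.36, 8.33 and 7.86 in WT. It was thus not low in KO, and since the sources used here do not say whether its probes lie in the deleted part, it does not check the labels; KO stands for the arrays labelled so.

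BCL6 silences genes mostly through proteins that it recruits to DNA. Its amino-terminal BTB domain binds the corepressors NCoR1 and BCOR, which bring histone deacetylase and Polycomb activities. Its central region recruits MTA3 and the NuRD complex, and BCL6 has also been found with CtBP1 and with class II HDACs. HDAC3 is the catalytic subunit of the NCoR complex. HDAC4, HDAC5, HDAC7 and HDAC9 form class IIa, enzymes with little deacetylase activity of their own that bind MEF2 factors and leave the nucleus once phosphorylated. HDAC7 and HDAC9 have been reported in complexes with FOXP3, which places them in Treg biology.

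The comparison of KO with WT Tregs bears on whether genes for the partners of BCL6 differ in level between Tregs labelled as Bcl6 knock-out and WT Tregs. RefSeq promoters (build GRCm38.p6, 250 bases before to 50 after a start site) were taken with 1 chromosome left out, including the background. Among the promoters kept, none was found for Hdac3 and Mta3, which does not mean that RefSeq holds none. In all, 12 promoters were found for 7 of the 9 genes. They were searched for TTCNNNGAA, the spaced palindrome that BCL6 sites share with STAT sites, which reads the same on both strands, and for its narrower form TTCCTNGAA on both strands, every match of which is also a match of the wider form. The wide form was in 5 of the 12 promoters, at starts of Ncor1, Bcor and Hdac7, and in 8.3% of 32851 mouse promoters of that length. Some of the 12 windows overlap, and 2 of the 5 are Bcor windows that hold the same match. The 12 are thus not independent, and their share was not tested against that of all promoters. The narrow form was in 1 of the 12, at 1 of the 2 Ncor1 starts, and in 1.59% of all. Below are 2 promoters, that of Bcor as a gene whose KO 1 arrays stood above WT, and the Hdac7 start with a pair of matches, as a gene whose KO 2 arrays stood below WT; capitals mark TTCNNNGAA.
Bcor, chrX:12160306-12160605, minus strand: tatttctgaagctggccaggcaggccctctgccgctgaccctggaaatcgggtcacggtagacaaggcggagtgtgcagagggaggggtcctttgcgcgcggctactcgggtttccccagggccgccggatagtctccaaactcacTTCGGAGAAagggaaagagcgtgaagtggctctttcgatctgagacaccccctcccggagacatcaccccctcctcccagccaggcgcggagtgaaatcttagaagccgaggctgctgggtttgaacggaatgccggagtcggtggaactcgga
Hdac7, chr15:97831718-97832017, minus strand: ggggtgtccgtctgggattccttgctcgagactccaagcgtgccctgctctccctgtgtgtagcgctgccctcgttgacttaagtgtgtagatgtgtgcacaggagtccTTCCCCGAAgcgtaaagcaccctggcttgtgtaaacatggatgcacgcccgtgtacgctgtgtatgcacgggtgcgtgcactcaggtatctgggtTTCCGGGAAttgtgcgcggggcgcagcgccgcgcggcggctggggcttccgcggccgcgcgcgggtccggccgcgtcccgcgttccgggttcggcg
The Bcor match began at -104 relative to the start site, and the Hdac7 matches at -141 and -46. The Bcor match also lay in a second annotated Bcor promoter, at -113. Of the other Hdac7 starts, 1 had a single match and the rest none. No match was found in the windows of Bcorl1, Hdac4, Hdac5 and Ctbp1. Ctbp1 also had KO 1 arrays above WT, and Hdac4 also had KO 2 arrays below WT, though not in its second probe set. A match is a description of letters and not a site of binding. GC content of the 12 promoters ran between 38.3% and 78.7%, against a median of 52.7% over all promoters, and that of Ctbp1 held 43 CpG dinucleotides against a median of 7.

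The arrays differed in spread, which touches each value below. Over all probe sets, log2 values had an SD of 1.84 and 1.87 in the KO 1 arrays and 1.61 and 1.65 in the KO 2 arrays, against 1.56 to 1.70 in the WT arrays. Genes with a mean log2 level from 9 to 10, where Hdac3, Hdac7, Mta3 and Ctbp1 lie, had a median log2 difference from WT of 0.80 in KO 1 and 0.08 in KO 2. For genes from 8 to 9, where Hdac4 and Hdac5 lie, these medians were 0.67 and 0.03, and for genes from 7 to 8, with Bcor and Bcorl1, both were 0.02. The 7 markers of Tregs were at log2 levels of 8.96 to 12.13 in all 8 arrays. Of the 7, 3 had each KO array above each WT array, against 6.67% of all genes. Summed on the linear scale, they reached 19438 to 19643 in KO 1 arrays and 13431 to 13605 in KO 2 arrays, against 8658 to 13713 in WT. Of 6 effector Treg markers, all 6 had each KO array above each WT array, with summed linear levels of 4228 to 9395 in KO and 582 to 687 in WT. Of 5 myeloid markers 1 did so too, and no B cell, NK cell or CD8 T cell marker did. The marker lists were chosen with earlier results of these data known, so these counts are a description and not a test. Summed marker levels in KO and WT were 373 to 413 and 329 to 397 for B cells (4 of 5 markers measured), 396 to 461 and 371 to 470 for myeloid cells, 143 to 153 and 145 to 151 for NK cells, and 299 to 387 and 339 to 449 for CD8 T cells. The part of cell state and of the spread of the arrays in the results was not tested beyond the alternatives given. In bulk RNA, fewer cells of a type and less RNA per cell cannot be told apart.

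No corepressor or HDAC gene of the set passed the test between KO and WT Tregs, which does not show that their levels are alike. With limma, preparations as a random block and Benjamini-Hochberg adjustment over 19937 genes, 0 of 8 had an adjusted p under 0.05, against 0.135% of all genes (0.12% higher and 0.015% lower). An unadjusted p under 0.05 was found in 0 of 8, against 6.19% of all genes (5.65% higher and 0.542% lower). In 0 of 8 were the KO arrays all above or all below the WT arrays, against 8.78% of all genes (6.67% above and 2.11% below). The log2 difference was above 0 in 6 of the 8, against 43.2% of all genes, with a median of 0.27, against a median of -0.06 over all genes. At the levels of the 8, the median over all genes was -0.01 from 7 to 8, 0.34 from 8 to 9 and 0.44 from 9 to 10. The 2 KO preparations differed from each other: the median log2 difference of the 8 from WT was 0.45 in KO 1 and 0.04 in KO 2. Both KO 1 arrays were above all WT arrays in 4 of the 8 genes, against 34% of all genes, and in 0 of the 8 below, against 42.8%. Both KO 2 arrays were above all WT arrays in 1 of the 8, against 9.54%, and below in 2, against 4.75%. With KO 2 left out and no random block, limma called 4 of the 8 higher in KO 1 than in WT, against 30.1% of all genes, in a fit that called 67.1% of genes in either direction.

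**Figure D1:**
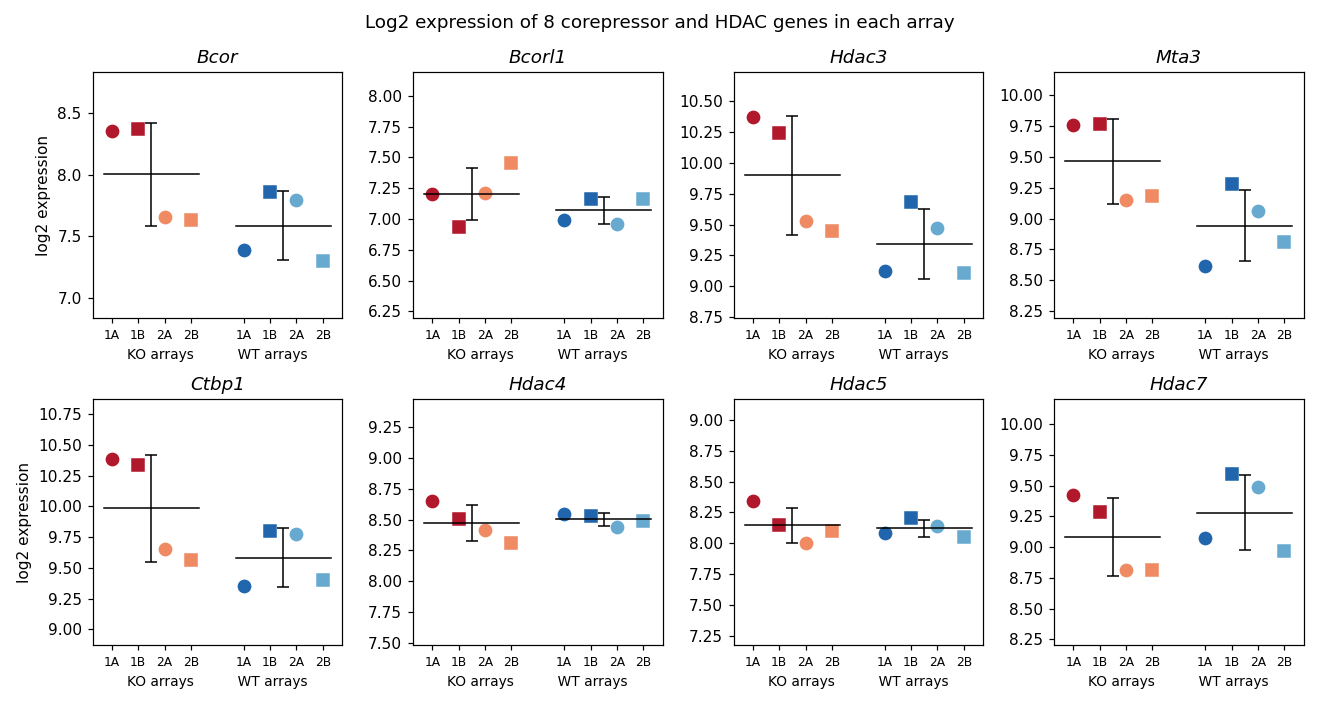
Log2 expression (vertical axis, 2 log2 units in every panel) of 8 genes in each array, with KO arrays in red and orange (preparations 1 and 2) left of WT arrays in dark and light blue; circles are arrays A, squares arrays B, and lines with bars are group means ± SD of 4 arrays. In Bcor, Hdac3, Mta3 and Ctbp1 the KO 1 arrays lie above all others, while the KO 2 arrays lie among the WT arrays.

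Bcor, the BTB-binding corepressor that carries a variant Polycomb complex, was high in the KO 1 arrays alone. Its log2 expression (probe set 10603627) was 8.35 and 8.37 in KO 1 and 7.66 and 7.63 in KO 2, against 7.39, 7.86, 7.80 and 7.30 in WT arrays 1A, 1B, 2A and 2B. Both KO 1 arrays were above all WT arrays, and both KO 2 arrays lay inside the WT range. The group means were 8.00 ± 0.41 in KO and 7.59 ± 0.28 in WT (SD, n = 4 each), which differ on the log2 scale by 0.42 (SE 0.31, limma adjusted p = 0.701).

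Bcorl1, the homologue of Bcor whose protein also binds CtBP, had another pattern. Its log2 expression (probe set 10599514) was 7.20 and 6.94 in KO 1 and 7.21 and 7.45 in KO 2, against 6.99, 7.16, 6.96 and 7.16 in WT. Both KO 2 arrays were above all WT arrays, KO 2A by little and KO 2B by more than the whole WT range, and the KO 1 arrays spanned the WT range. The log2 difference was 0.13 (SE 0.23, limma adjusted p = 0.767). Against WT, KO 1 differed by 0.00 and KO 2 by 0.26.

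Hdac3, the deacetylase of the NCoR complex, had the largest log2 difference of the 8 genes on the deposited scale, though not after quantile normalization or with a covariate for array SD, where that of Hdac7 was larger. Its log2 expression (probe set 10458461) was 10.38 and 10.25 in KO 1 and 9.53 and 9.45 in KO 2, against 9.12, 9.68, 9.47 and 9.10 in WT. KO 1 was above all WT arrays, and both KO 2 arrays were below WT 1B. The group means were 9.90 ± 0.48 in KO and 9.34 ± 0.28 in WT (SD, n = 4 each), which differ on the log2 scale by 0.56 (SE 0.34, limma adjusted p = 0.701).

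Mta3, the NuRD subunit that BCL6 recruits, was measured by 2 probe sets that ran in opposite directions. The probe set with the higher mean (10447167) had 9.76 and 9.76 in KO 1 and 9.15 and 9.19 in KO 2, against 8.62, 9.28, 9.06 and 8.81 in WT, a log2 difference of 0.52 (SE 0.32, limma adjusted p = 0.701). The other (10447188) had 6.20 and 6.43 in KO 1 and 6.67 and 6.97 in KO 2, against 6.77, 6.87, 6.93 and 7.16 in WT, with KO 1 below all WT arrays. In a fit over all 21771 probe sets with 1 symbol its log2 difference was -0.36 (SE 0.24, limma adjusted p = 0.696). Against WT, KO 1 differed by -0.62 and KO 2 by -0.11. The direction for Mta3 thus depended on the probe set.

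Ctbp1, a dehydrogenase-like corepressor that assembles histone-modifying enzymes, followed the course of Bcor and Hdac3. Its log2 expression (probe set 10529273) was 10.39 and 10.33 in KO 1 and 9.65 and 9.56 in KO 2, against 9.35, 9.80, 9.78 and 9.40 in WT. The KO 1 arrays were the highest of the 8, and the KO 2 arrays lay between the higher and the lower WT arrays. The log2 difference was 0.40 (SE 0.33, limma adjusted p = 0.701). Against WT, KO 1 differed by 0.78 and KO 2 by 0.02.

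The class IIa enzymes of the set did not share the high level in KO 1. Hdac4 (probe set 10356628) had 8.65 and 8.51 in KO 1 and 8.42 and 8.31 in KO 2, against 8.55, 8.53, 8.44 and 8.49 in WT, a log2 difference of -0.03 (SE 0.22, limma adjusted p = 0.939). Its KO 2 arrays were just below the lowest WT array. A second Hdac4 probe set (10356626) had a log2 difference of 0.03 (SE 0.25, limma adjusted p = 0.946). There KO 2B, at 7.886, was above WT 1A, at 7.881, so the KO 2 arrays were not both below WT. Hdac5 (probe set 10391577) had 8.34 and 8.15 in KO 1 and 8.00 and 8.10 in KO 2, against 8.09, 8.21, 8.14 and 8.05 in WT, a log2 difference of 0.02 (SE 0.22, limma adjusted p = 0.953) that was below 0 after quantile normalization. Both genes varied little: their range over the 8 arrays was 0.345 log2 for Hdac4 and 0.34 log2 for Hdac5.

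Hdac7, the class IIa enzyme abundant in developing T cells, was low in the KO 2 arrays. Its log2 expression (probe set 10432006) was 9.42 and 9.28 in KO 1 and 8.81 and 8.81 in KO 2, against 9.08, 9.59, 9.49 and 8.97 in WT. Both KO 2 arrays were below all WT arrays, and both KO 1 arrays lay inside the WT range. The group means were 9.08 ± 0.32 in KO and 9.28 ± 0.31 in WT (SD, n = 4 each), which differ on the log2 scale by -0.20 (SE 0.33, limma adjusted p = 0.757). Against WT, KO 1 differed by 0.07 and KO 2 by -0.47. With KO 1 left out the difference was -0.47, with an adjusted p of 0.0168 where limma's random block had an estimated correlation of -0.629, and an adjusted p of 0.681 without a random block, a fit that called 0 of the 8 and 0.722% of all genes (0.0803% lower).

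The difference between KO preparations was tested in limma with a mean for each of the 4 preparations, so that the spread is only that between arrays A and B. Of the 8 genes, 4 were higher in KO 1 than in KO 2 and 0 lower, against 27.7% and 31% of all genes. Hdac3 was higher in KO 1 by 0.82 log2 (SE 0.22, adjusted p = 0.0111), Ctbp1 by 0.75 (SE 0.22, adjusted p = 0.0138), Bcor by 0.72 (SE 0.20, adjusted p = 0.0122) and Mta3 by 0.59 (SE 0.22, adjusted p = 0.0356). Hdac7 differed by 0.54 (SE 0.22, adjusted p = 0.054), Hdac4 by 0.22 (SE 0.16, adjusted p = 0.242), Hdac5 by 0.19 (SE 0.16, adjusted p = 0.293) and Bcorl1 by -0.26 (SE 0.17, adjusted p = 0.182), none past the threshold. These 4 of 8 stand beside a background in which 58.8% of all genes differed between the KO preparations, so a difference of this kind was common on these arrays. After quantile normalization, which gives each array the same distribution, limma called 0 of the 8, with adjusted p of 0.0814 for Hdac3, 0.0927 for Ctbp1, 0.163 for Bcor and 0.58 for Mta3.

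Within WT, the arrays did not group by preparation. WT 1B and 2A were both above WT 1A and 2B in 6 of the 8 genes, namely Bcor, Hdac3, Mta3, Ctbp1, Hdac5 and Hdac7, against 29.3% of all genes, and the opposite order was found in 37.7% of all genes. The spread within WT reached 0.67 log2 in Mta3, more than its KO minus WT difference of 0.52. In Hdac3 the WT spread was 0.58, beside a difference of 0.56.

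**Figure D2:**
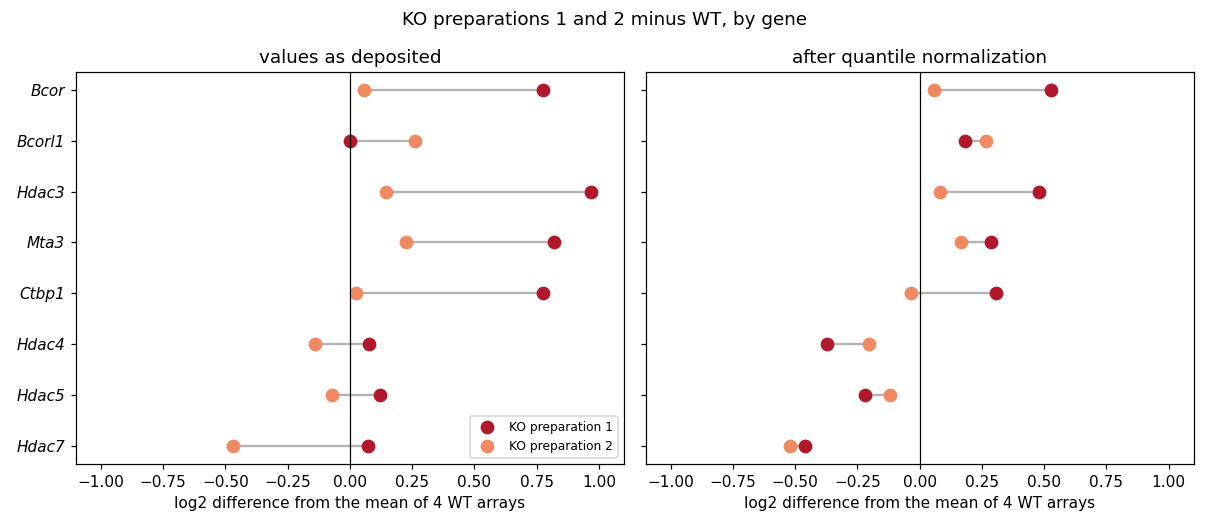
Log2 difference of KO preparation 1 (red) and preparation 2 (orange) from the mean of 4 WT arrays (horizontal axis) for 8 genes, as deposited on the left and after quantile normalization on the right; points are means of 2 arrays and grey lines join them. As deposited the preparations lie 0.72 log2 apart in Bcor and 0.54 in Hdac7; after normalization both preparations lie below 0 in Hdac4, Hdac5 and Hdac7.

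After quantile normalization the gap between KO preparations was narrower, and the 3 class IIa genes lay below WT while the other 5 lay above it. Hdac7 then had 9.02, 8.91, 8.89 and 8.93 in KO arrays 1A, 1B, 2A and 2B, against 9.35, 9.54, 9.62 and 9.19 in WT, with all KO arrays below all WT arrays. Its log2 difference was -0.49 (SE 0.16, limma adjusted p = 0.245). Hdac4 had 8.30, 8.25, 8.50 and 8.39 in KO, against 8.82, 8.51, 8.55 and 8.72 in WT, and Hdac5 8.07, 7.96, 8.06 and 8.16 in KO, against 8.28, 8.20, 8.25 and 8.19 in WT. Their log2 differences were -0.29 (SE 0.14, limma adjusted p = 0.438) and -0.17 (SE 0.12, limma adjusted p = 0.545), again with no overlap between KO and WT. The other 5 genes had smaller log2 differences than as deposited, except Bcorl1. They were 0.29 (SE 0.24, limma adjusted p = 0.601) for Bcor, 0.28 (SE 0.16, limma adjusted p = 0.488) for Hdac3 and 0.23 (SE 0.15, limma adjusted p = 0.517) for Mta3. Ctbp1 was at 0.14 (SE 0.15, limma adjusted p = 0.679) and Bcorl1 at 0.22 (SE 0.15, limma adjusted p = 0.531), and in all 5 KO and WT arrays overlapped. The 3 of 8 genes without overlap stand beside 4.73% of all genes whose KO arrays were all below WT after this normalization, while 0 of 8 had KO arrays all above WT, against 7.36%. Genes outside class IIa, named with the lists below, also had all KO arrays below WT then. Limma called 0 of the 8 after quantile normalization, against 0.787% of all genes, and 1 of the 8 had an unadjusted p under 0.05, against 12.3% of all genes. With a covariate for array SD, Hdac7 had a log2 difference of -0.53 (SE 0.08, limma adjusted p = 8.03e-04), in a fit that called 1 of the 8 and 12.5% of all genes (4.43% lower). In the same fit Bcor was at -0.0019, Hdac3 at 0.07, Mta3 at 0.16 and Ctbp1 at -0.03. Bcorl1 was at 0.26, Hdac4 at -0.15 and Hdac5 at -0.09. The random block of that fit had an estimated correlation of -0.367, against 0.617 in the main fit, where the SE for Hdac7 was 0.33. Array SD was highest in the KO 1 arrays, so the covariate in part stands for that preparation. Hdac7 thus passed in the fit with array SD and not as deposited or after quantile normalization.

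The other HDAC genes hold the class II members outside the set. Of 7 measured, limma called 0, against 0.135% of all genes. An unadjusted p under 0.05 was reached by Hdac6, above WT, and by Hdac9, below it, as in 5.65% and 0.542% of all genes. Hdac9, the remaining class IIa enzyme, had 6.52 and 6.67 in KO 1 and 7.20 and 7.13 in KO 2, against 7.80, 7.88, 7.80 and 7.84 in WT. All KO arrays were below all WT arrays, as in 2.11% of all genes, and the WT arrays lay close together. The group means were 6.88 ± 0.34 in KO and 7.83 ± 0.04 in WT (SD, n = 4 each), which differ on the log2 scale by -0.95 (SE 0.23, limma adjusted p = 0.253). KO 1 was -1.24 and KO 2 -0.67 from WT. After quantile normalization it was -0.96 (SE 0.13, limma adjusted p = 0.00812), the only one of the 7 called then, against 0.787% of all genes. Hdac6, the class IIb enzyme that deacetylates tubulin, had 8.28 and 8.09 in KO 1 and 7.37 and 7.57 in KO 2, against 7.19, 7.20, 7.27 and 7.23 in WT. Its log2 difference was 0.60 (SE 0.25, limma adjusted p = 0.701), with 0.96 in KO 1 against 0.25 in KO 2. All KO arrays were above all WT arrays, as in 6.67% of all genes.

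**Figure D3:**
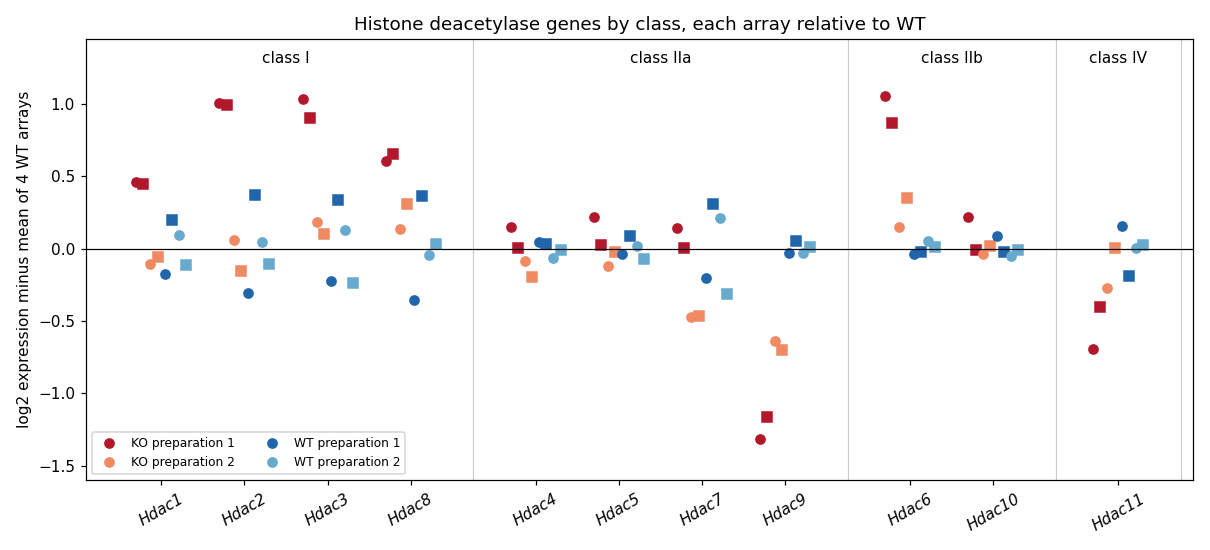
Log2 expression of 11 histone deacetylase genes minus the mean of the 4 WT arrays (vertical axis), by class, with KO arrays (red and orange) left of WT arrays (dark and light blue) for each gene; circles are arrays A and squares arrays B. All KO arrays lie below WT in Hdac9 and above WT in Hdac6, and the class I genes Hdac2 and Hdac3 are about 1 log2 above the WT mean in KO 1, with KO 2 inside the WT range.

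Genes of the complexes around the corepressors were read as lists, whose medians describe these arrays and whose genes overlap between lists. Of 73 measured genes in 7 lists, counted once each, limma called 0. An unadjusted p under 0.05 was reached by 4 above WT and 1 below, against 5.65% and 0.542% of all genes. KO arrays were all above WT in 6 and all below in 1, against 6.67% and 2.11% of all genes. The median log2 difference of the 73 from WT was 0.61 in KO 1 and -0.01 in KO 2, against -0.13 and 0.02 over all genes. Of the 73, 53 had a mean log2 level of 8 or more, where all genes were also above WT in KO 1. At levels from 8 to 9 the KO 1 median was 0.68 for 28 list genes and 0.67 for all genes, and from 9 to 10 it was 0.64 for 15 list genes and 0.80 for all genes, so the list medians lay near those of other genes of their level. After quantile normalization the median KO minus WT difference was 0.08, against -0.01 over all genes. All KO arrays were then below all WT arrays in Ring1, Chd3, Chd4, Gatad2b, Hmg20b, Phf21a, Hdac9, Hdac11, Mef2d, Sik2 and Ing1. They were all above in Mta1, Rbbp7, Ehmt2, Hdac6, Camk2g, Ywhab and Ywhah. Over all genes the shares were 4.73% below and 7.36% above. In KO 1 against KO 2, 45 of the 73 were higher and 2 lower, against 27.7% and 31% of all genes.

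The NCoR list (7 genes measured), with the scaffolds Tbl1x and Tbl1xr1, had all 7 log2 differences above 0, against 43.2% of all genes. Its median was 0.56, with 0 called or without overlap. That median was 0.84 in KO 1 and 0.18 in KO 2, and 0.27 for KO minus WT after quantile normalization. Over all genes the KO minus WT median was 0.34 at levels from 8 to 9 and 0.44 from 9 to 10. The Bcor partners (9 of 9 measured, such as the Polycomb ring finger gene Pcgf1 and the demethylase gene Kdm2b) had a median of 0.28, with 7 above 0 and 2 below, and again 0 called. The NuRD list (12 of 12 measured) had a median of 0.41, and 1 gene without overlap: Rbbp7, a histone-binding subunit, was higher by 0.65 (SE 0.34, limma adjusted p = 0.701). In the CtBP list (10 measured) the median was 0.14, and Ehmt2, a histone methyltransferase, was the 1 gene without overlap, at 0.64 (SE 0.31, limma adjusted p = 0.701). In the Sin3 list (10 measured) it was 0.26, with Sap30 without overlap at 0.60 (SE 0.26, limma adjusted p = 0.701). KO arrays all above WT, as in Rbbp7, Ehmt2 and Sap30, were found in 6.67% of all genes.

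Genes that act on class IIa HDACs, their MEF2 partners, the kinases that phosphorylate them and the adaptors that then hold them in the cytoplasm, had a median of 0.34 (20 of 21 measured), with 0 called. The kinase gene Camk2g had 8.64 and 8.64 in KO 1 and 7.93 and 7.80 in KO 2, against 7.35, 7.74, 7.25 and 7.12 in WT, with no overlap. Its log2 difference was 0.88 (SE 0.29, limma adjusted p = 0.548). The adaptor gene Ywhah was also without overlap, at 0.71 (SE 0.32, limma adjusted p = 0.701). KO arrays all above WT were found in 6.67% of all genes. The MEF2 genes Mef2a, Mef2c and Mef2d were at 0.26, -0.09 and -0.14, with limma adjusted p of 0.713, 0.758 and 0.795.

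**Figure D4:**
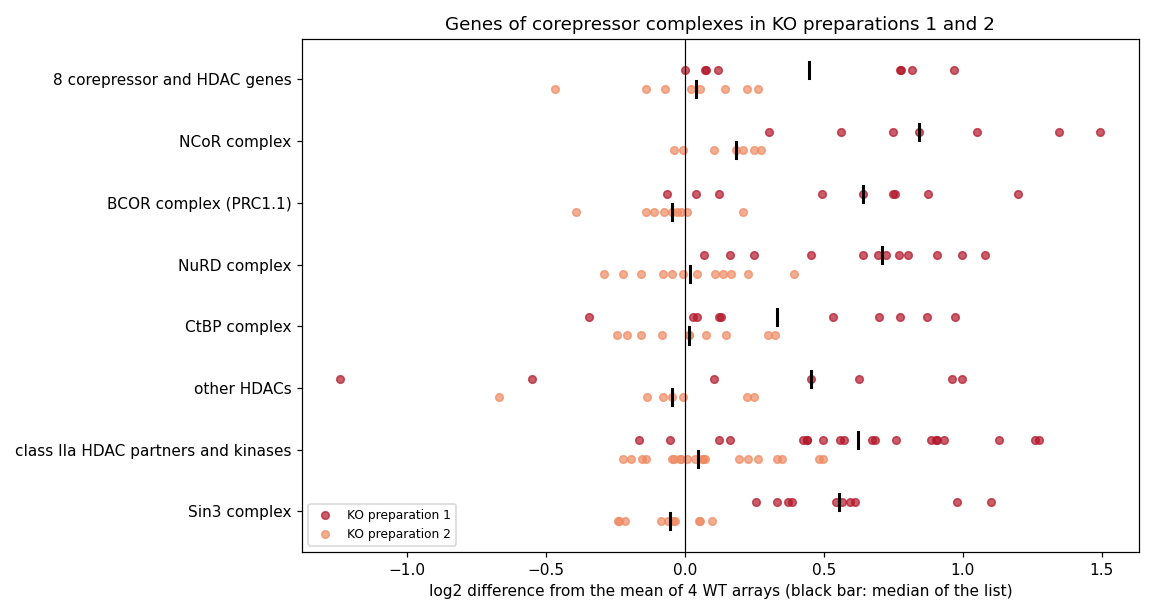
Log2 difference of KO preparation 1 (red) and 2 (orange) from the mean of 4 WT arrays (horizontal axis) for the 8 corepressor and HDAC genes and for 7 lists of related genes; each point is a gene, and black bars are list medians. The KO 1 medians run between 0.33 and 0.84 and the KO 2 medians between -0.05 and 0.18.

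The course of the most variable genes over the 8 arrays was shared by many others. The genes most like Hdac3 were Traf7, Trap1 and Mrpl52, with Pearson correlations of 0.9992, 0.9989 and 0.9986 over 8 arrays that share 4 preparations. Those most like Mta3 were Tab2, Sft2d2 and Cert1 (0.9982, 0.9976 and 0.9976), and those most like Bcor were Acbd6, Sde2 and Macroh2a1 (0.9988, 0.9963 and 0.9946). Over all genes, 3108 correlated with Hdac3 above 0.95, 1953 with Mta3 and 2049 with Bcor, so such likeness was not rare on these arrays.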

How the data were processed

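Total RNA of 8 samples of stimulated Tregs was measured on Affymetrix arrays per the labels' protocols. The authors deposited log2 values, 1 for each probe set and array; the submitters' processing notes name RMA and Partek, without versions or filters. RMA usually equalises array distributions, but these columns differ in SD, so both the values as deposited and quantile-normalized values are given. Scanner files were not used here, 0 columns were left unused, and precision is limited by having 8 arrays.

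Of 28768 probe sets, 21771 had 1 gene symbol in the platform annotation, which can be old, giving 19937 genes after taking the probe set with the highest mean; 1557 had several symbols and 5440 none there. KO and WT were compared in limma 3.58.1 (R 4.3.3; lmFit, eBayes with a variance trend) with the labelled preparation as a random block (duplicateCorrelation, correlation 0.617), two-sided, with a call at an adjusted p (Benjamini-Hochberg) under 0.05. KO 1 and KO 2 were compared in a fit with 4 preparation means. SE is that of the fitted log2 difference. The fits were tested on simulated data. Genes and lists were chosen with earlier results of these data known. List genes whose KO and WT arrays do not overlap after quantile normalization are named too, a choice made after their values were seen. Named beside the 8 genes are list genes that were called, or up to 3 per list with the largest difference among those whose arrays do not overlap, and for the 3 genes of largest difference the 3 most correlated genes; Tbl1x, Tbl1xr1, Pcgf1, Kdm2b, Mef2a, Mef2c, Mef2d and Hdac2 are named as examples of their lists, chosen after their values were seen. Same-labelled KO and WT arrays deviated from their group means with correlations of -0.691, 0.771, -0.42 and 0.682, and KO 1 minus KO 2 correlated with WT 1 minus WT 2 at 0.416 over genes, a single pair of differences. As the labels do not say what a number shares and same-labelled arrays did not all deviate together, the numbers were not used to pair samples. Promoter sequences are from RefSeq. Alternatives were other blocks, scalings, variance models, weights, filters and probe sets, and leaving out arrays or preparations; 2 were added after seeing the data, namely quantile normalization with preparation means and each further probe set alone.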

Additional observations from a re-analysis of the deposited data

Results flagged for a closer look

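In 4 of the 8 genes the KO 1 arrays differed from the KO 2 arrays, and so KO 1 minus WT from KO 2 minus WT, in limma with a mean for each preparation. The log2 difference of KO 1 from KO 2 was 0.7185 for Bcor, 0.8246 for Hdac3, 0.5944 for Mta3 and 0.7538 for Ctbp1, with adjusted p of 0.0122, 0.0111, 0.0356 and 0.0138. The same test called 58.8% of all genes, and its spread is that between arrays A and B of a preparation. The other Mta3 probe set differed the other way, by -0.51 (adjusted p = 0.0242). No array stood apart from the other 3 of its group by Dixon's criterion in any of the 8 genes.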

How the results depend on the processing

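No alternative but 4 called any of the 8 genes in KO against WT. Those were 1 gene with array SD as a covariate (Hdac7), 1 without preparation KO 1 (Hdac7), and 4 without KO 2, with or without a random block (Bcor, Hdac3, Mta3 and Ctbp1). Leaving out 1 array called 0 of the 8 in limma each time, with at most 1 at an unadjusted p under 0.05. The estimated block correlation was 0.617, but -0.629 without KO 1, -0.642 without KO 2 and -0.367 with array SD as a covariate. The cause of the changes below was not tested.

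Over all genes, 24 were called higher and 3 lower. The counts were 92 and 21 with no block, 45 and 7 on preparation means, 14 and 2 with the letter as a term, 121 and 36 after quantile normalization, 12 and 2 after median centring, 1599 and 884 with array SD as a covariate, and 61 and 5 with array weights. Leaving out 1 array gave 13 to 51 higher and 2 to 6 lower. Without KO 1 they were 1124 and 341 (128 and 16 with no random block), without KO 2 7234 and 9666 (5997 and 7381), without WT 1 8 and 4, and without WT 2 0 and 0 in limma, where 200 genes had an unadjusted p under 0.05. Quantile normalization with preparation means gave 4 and 3. A fixed replicate block by number gave 620 and 57, and called 0 of the 8 genes; the labels do not say whether a number marks a shared origin, and of the 4 KO arrays only KO 1B correlated best with the WT array of its own number and letter.

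Genes of the 8 without overlap numbered 0 as deposited, against 8.78% of all genes. They were 4 on preparation means (40.1%), 3 after quantile normalization (12.1%), 7 with both (45%), 3 without KO 1 (14.3%), 4 without KO 2 (76.8%), 1 without WT 1 (25.5%), and 0 to 1 without a single array (9.27% to 21.3%). With 2 preparation means a group, separation is common.

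Differences near 0 changed sign, and in some alternatives larger ones did too. Hdac5 was at -0.1688 after quantile normalization with or without preparation means, -0.0893 with array SD, -0.0009 with weights, -0.0718 without KO 1 with or without a random block, -0.0006 without WT 2, and -0.0328 to 0.0593 without a single array. Hdac4 was at 0.0701 after median centring, 0.0002 with probe sets averaged, 0.0323 with its other probe set (also that of highest SD), 0.0759 without KO 2, 0.0068 without WT 1, and -0.0812 to 0.0108 without a single array. With array SD, Bcor was at -0.0019, against 0.4155 in the main fit, and Ctbp1 at -0.0269, against 0.4005. Hdac7 was at 0.0731 without KO 2, and the other Mta3 probe set at -0.3649. Hdac3 and Bcorl1 kept their direction in every alternative, at 0.07 to 0.97 and 0.00 to 0.26.

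Of KO 1 against KO 2, quantile normalization left 3738 genes, against 11714, and 0 of the 8, against 4. It turned Hdac4 to -0.1711 and Hdac5 to -0.1002. Median centring called 5 of the 8, with Hdac7 added at 0.82 (adjusted p = 0.0351), and turned Bcorl1 to 0.0181. It moved the median difference of all genes to 0.04, against -0.06 as deposited.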
